A study of Mus musculus with 36 samples.

Results

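The controls of the 2 Ddx3x crosses were compared with each other: cortices of embryos that carried Emx1-Cre against cortices of embryos that carried a lox-flanked Ddx3x allele and no Cre. They make up 18 of the 36 libraries of the dataset, 9 on each side, and were chosen by genotype and cross alone. The Cre controls were Emx1-Cre/+ and came from the T532M cross. The floxed controls were Ddx3x lox/+ and came from the LoF cross. All were female embryos at E14.5, and each sample pooled the cortices of 2 embryos of the same genotype. Each pool gave an input library from the cleared lysate, a monosome library and a polysome library from its sucrose gradient, so a fraction held 3 pools against 3. The other 18 libraries came from conditional heterozygotes (cHet) of the same crosses: Emx1-Cre/+;Ddx3x lox/+ in the LoF cross and Emx1-Cre/+;Ddx3x-T532M lox/+ in the T532M cross. Both cHet groups carried Cre, so their difference holds the cross and the Ddx3x allele but not the presence of Cre.

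In the control comparison Cre, the lox allele, the cross and any batch that went with a cross cannot be told apart. The study's design compares each cHet group with the controls of its own cross, and does not make this comparison. Litters and days of the pools are not given in the sources used here, so p-values measure the spread between these libraries only. The fit took that spread from all 18 control libraries and treated the fractions of a pool as independent. Fractions of a pool deviated together, so the p-values are not those of 3 pools against 3 alone. The 18 control libraries held 36999365 to 57935512 read pairs. Levels are CPM, read pairs scaled to the size of the library, log2 differences are Cre minus floxed control, and a gene was called at an adjusted p under 0.05 by edgeR's quasi-likelihood test over 18507 genes. No pair of libraries was a duplicate. Emx1, whose promoter drives Cre, and the other dorsal cortical markers were present throughout, while markers of the choroid plexus and of the meninges differed between pools by large factors. Among the floxed pools, pools 1 and 3 were rich in the choroid plexus RNA Ttr, and a called value that moved by over 1.5 times without both is given beside the gene.

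Emx1 is a transcription factor of dorsal telencephalic progenitors, and Emx1-Cre acts in these cells and in the neurons and glia they form. At the medial edge of the cortex lies the cortical hem, a source of Wnt and Bmp signals, and beside it the choroid plexus, an epithelium that secretes cerebrospinal fluid and makes transthyretin. The meninges, the blood vessels and the blood come from outside the dorsal neuroepithelium. How much of these border tissues a cortex sample holds depends on the dissection as well as on development. In bulk RNA, fewer cells of a type and less RNA per cell cannot be told apart.

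Few genes separated the 2 kinds of controls. In input 20 genes were called (0.108% of those tested), 1 higher (0.0054%) and 19 lower (0.103%) in the Cre controls. The monosome gave 17 calls (0.0919%), 3 higher (0.0162%) and 14 lower (0.0756%). The polysome gave 29 calls (0.157%), 3 higher (0.0162%) and 26 lower (0.14%). At an unadjusted p under 0.05 there were 1515, 1590 and 1627 genes. The calls fell on 46 genes, of which 28 were called in 1 fraction, 16 in 2 and 2 in all 3, namely Cyp26b1 and Dkk3. On simulated counts of the same 18507 genes, the fit recovered 90% of genes changed 2-fold in input, 94% in the monosome and 92% in the polysome. It recovered 34%, 42% and 44% of those changed 1.5-fold. Only genes with a mean of at least 2 CPM were changed, each gene had 1 mean for all fractions, and libraries were drawn independently. In the data libraries of a pool deviated together, and some called genes were below 2 CPM. These shares are therefore not the power of this comparison.

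These counts rest on single pools. Without floxed pool 1 there were 1, 7 and 3 calls in input, monosome and polysome, and without floxed pool 3 there were 10, 4 and 1. Without Cre pool 3 there were 0, 3 and 0. Without Cre pool 1 there were 6, 20 and 15. Leaving out floxed pool 2 gave 51, 25 and 74 calls, and leaving out Cre pool 2 gave 410, 231 and 368. Fitted on the 6 libraries of a fraction alone, the comparison gave 0, 10 and 1 calls, and with all 36 libraries in the fit 5, 7 and 2. No called gene changed direction under any alternative run. The alternatives reuse libraries that made the calls, so a kept direction is not separate support. Gm15610 and Mid1 in the monosome passed in all 13 alternatives of these kinds. Without both floxed pools rich in Ttr they did not (adjusted p = 0.214 and 0.344, log2 differences of -2.66 and 0.82).

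**Figure D1:**
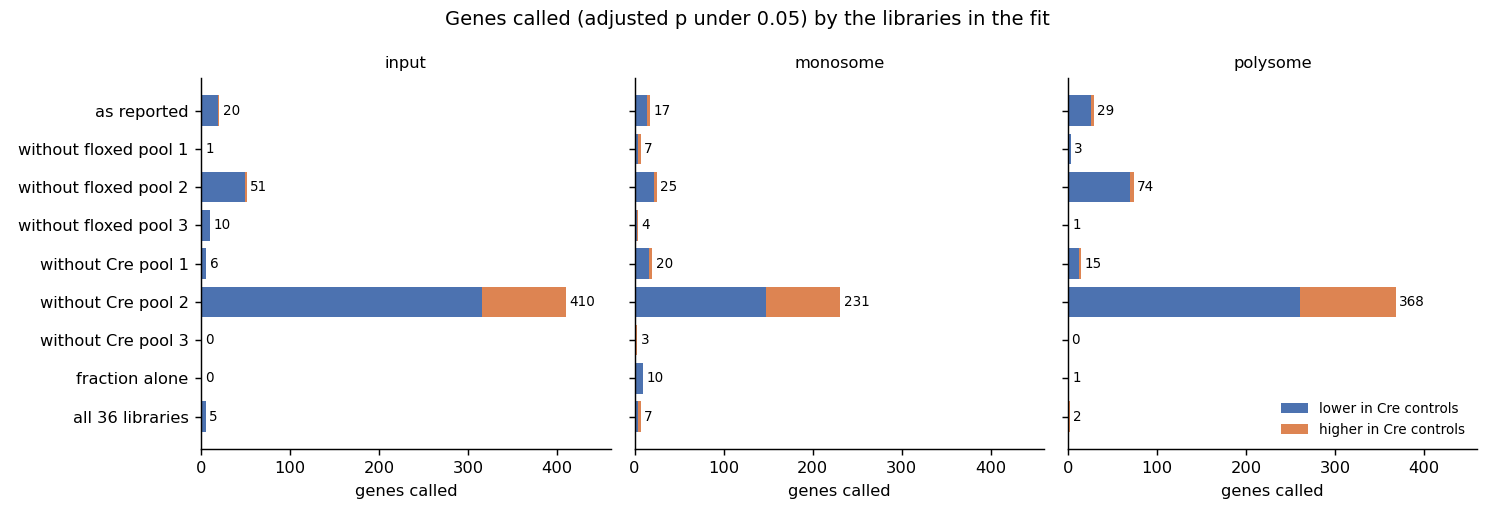
Number of genes called between Cre and floxed controls in each fraction (x axis), as reported and with other sets of libraries in the fit (y axis); blue is lower and orange higher in Cre controls. Leaving out Cre pool 2 raised the count to 410 in input, and leaving out Cre pool 3 lowered it to 0.

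The calls that were also made between the cHet groups were mostly on gene models that are near-identical copies of expressed genes. In all 6 genes passed in both comparisons, which share no library, and 4 of them are such copies. The first 3 described are copies of Tma7, a small gene for a translation machinery associated protein, and they are shown because a few bases separate them from the gene that gives most of such reads. The coding sequence of Tma7, from a transcript at chr9:109077887-109082587 (minus strand, GRCm38), has 195 bases. Tma7-ps (chr1:171711088-171711282, plus strand) differs from it at 2 bases, A123G and C141T, and is 99.0% identical. Gm15610 (chr5:8971948-8972142, plus strand) differs at 4, C10T, A96T, A110G and A123G. The copy within Gm6916 (chr7:128340467-128340661, plus strand) also differs at 4, C34T, C69T, A123G and C155T. Positions count from 1 at the first base of the Tma7 start codon, with the base of Tma7 first. In the Tma7 line capitals mark the positions where a copy differs, and in the other lines the copy's own bases there.
Tma7: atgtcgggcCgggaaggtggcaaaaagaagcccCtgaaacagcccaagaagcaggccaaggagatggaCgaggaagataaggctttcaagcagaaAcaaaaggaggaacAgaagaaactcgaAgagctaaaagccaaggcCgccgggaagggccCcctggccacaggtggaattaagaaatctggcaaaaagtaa
Tma7-ps: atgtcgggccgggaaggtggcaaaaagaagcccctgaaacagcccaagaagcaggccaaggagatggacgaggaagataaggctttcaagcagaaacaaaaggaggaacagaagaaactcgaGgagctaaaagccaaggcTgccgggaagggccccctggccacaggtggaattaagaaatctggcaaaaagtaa
Gm15610: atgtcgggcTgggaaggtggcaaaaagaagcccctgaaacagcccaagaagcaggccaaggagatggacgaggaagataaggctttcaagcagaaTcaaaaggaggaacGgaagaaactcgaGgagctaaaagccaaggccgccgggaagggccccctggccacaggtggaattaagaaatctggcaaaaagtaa
Gm6916: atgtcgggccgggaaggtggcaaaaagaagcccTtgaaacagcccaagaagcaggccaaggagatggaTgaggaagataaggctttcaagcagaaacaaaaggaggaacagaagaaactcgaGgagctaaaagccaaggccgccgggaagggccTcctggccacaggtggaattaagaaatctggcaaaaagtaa

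The 3 copies share A123G. The sequences come from the GENCODE transcripts of GRCm38, and with 50-base reads a read pair that covers none of the differing bases fits the gene and its copy alike, so the split of counts between Tma7 and its copies is uncertain. In input Tma7-ps was at 3.15, 3.59 and 2.09 CPM in the 3 floxed pools and at 0.645, 0.305 and 0.501 CPM in the 3 Cre pools. It was at 3.65, 2.62 and 2.79 CPM in LoF cHet and at 0.549, 0.665 and 0.500 CPM in T532M cHet. Every library of the LoF cross lay above every library of the T532M cross, with Cre or without it. The log2 difference was -2.57 (SE 0.340, adjusted p = 0.00678) between controls and -2.41 (adjusted p = 0.00458) between cHet groups.

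Gm15610 behaved alike. In the monosome its floxed pools were at 3.95, 4.91 and 3.37 CPM and its Cre pools at 0.832, 0.660 and 0.839 CPM, a log2 difference of -2.39 (SE 0.319, adjusted p = 0.00385). LoF cHet pools were at 4.45, 2.72 and 3.20 CPM and T532M cHet pools at 0.796, 0.558 and 0.985 CPM, so again the crosses did not overlap in either genotype. Gm6916 fell as well, by 3.29 on the log2 scale in input (adjusted p = 0.0242) and by 3.05 in the monosome (adjusted p = 0.0247). In input it was at 1.17, 1.77 and 0.764 CPM in floxed pools and at 0.176, 0.153 and 0.0401 CPM in Cre pools. Tma7 itself was at 107, 112 and 110 CPM in floxed input and at 121, 118 and 129 CPM in Cre input, with a log2 difference of 0.17 (SE 0.0737, adjusted p = 0.528). The other copies of Tma7 in the annotation, Gm14200, Gm15235 and Gm9613, also carry A123G. They had at most 0.361 CPM in input and were not called, and Gm15235 was too low to test.

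Gm8210 (chr1:43189156-43189638, plus strand) is a copy of the coding sequence of Rpl29, a protein of the large ribosomal subunit. It has the same 483 bases with 3 differences, C72A, C300T and T423C counted from the start codon of Rpl29. Its input levels were 2.84, 1.37 and 1.48 CPM in floxed pools and 0.0977, 0.0436 and 0.0602 CPM in Cre pools. LoF cHet pools held 1.48, 2.66 and 1.40 CPM and T532M cHet pools 0.0406, 0.0623 and 0.115 CPM. The log2 difference between controls was -4.73 (SE 0.660, adjusted p = 0.0108), and that between cHet groups was -4.61 (adjusted p = 0.000378). In the monosome it was -5.55 (adjusted p = 0.0084), from 209 read pairs in the floxed pools and 4 in the Cre pools. Rpl29, at 169, 226 and 210 CPM in floxed input and 270.3, 243 and 268 CPM in Cre input, was not called (adjusted p = 0.428).

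**Figure D2:**
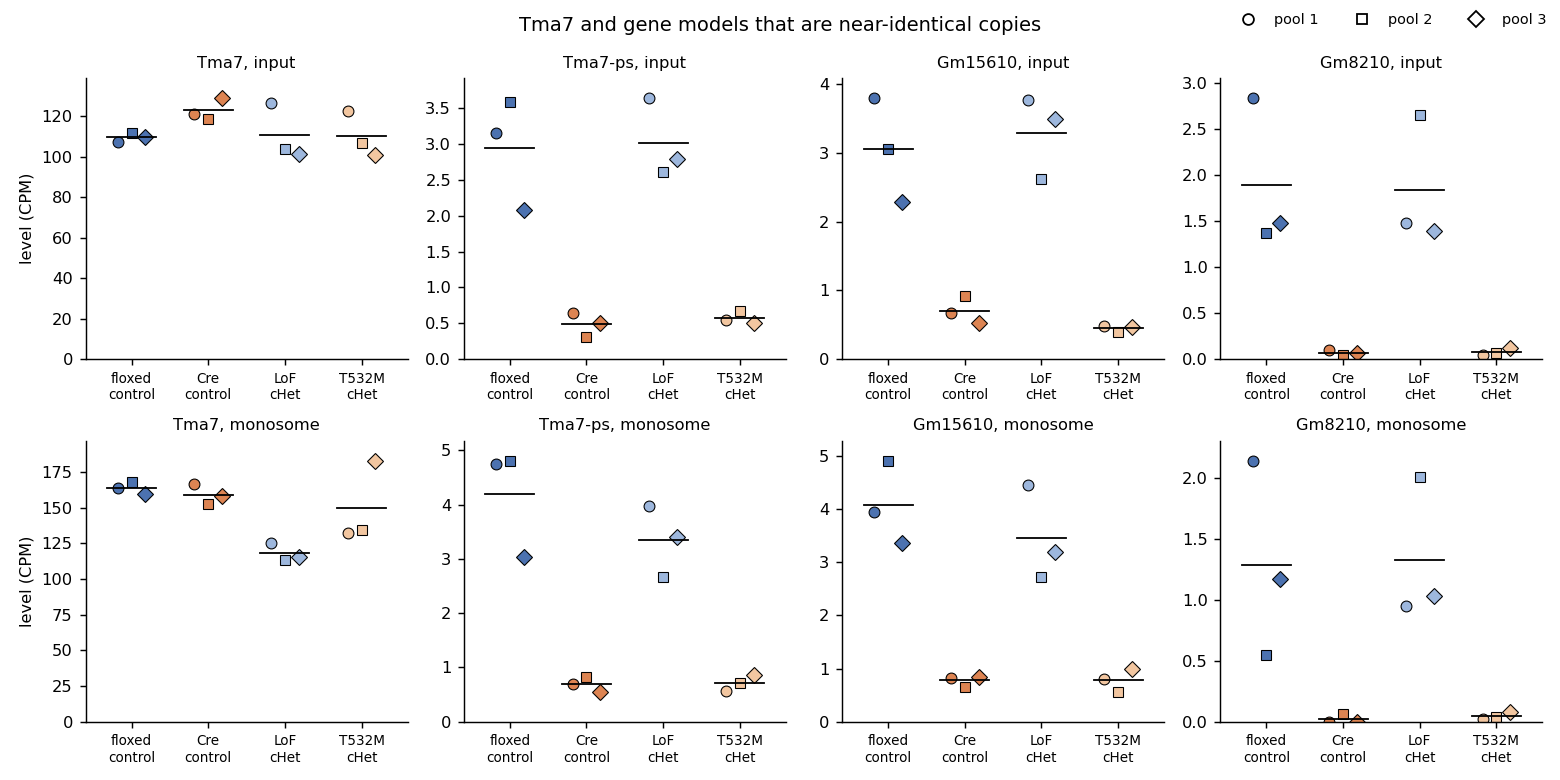
Level in CPM (y axis, from 0) of Tma7, its copies Tma7-ps and Gm15610, and the Rpl29 copy Gm8210 in every pool of the 4 groups, input above and monosome below; horizontal lines are group means. The copies split by cross in controls and cHet alike, while Tma7 stayed at 101 to 129 CPM in all input pools.

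Gm2808 and Mid1 went the other way. Gm2808 (ENSMUSG00000116560.1, chr17:6511791-6528713) is annotated as an unprocessed pseudogene, and its sequence was not compared with that of other genes. It was at 0.107, 0.0422 and 0.0556 CPM in floxed and 0.495, 1.08 and 1.14 CPM in Cre monosome pools, and rose by 3.67 on the log2 scale (adjusted p = 0.00636). Between cHet groups its monosome difference was 3.91 (adjusted p = 0.00751). In the polysome it rose by 3.19 between controls (adjusted p = 0.0108), and the cHet difference of 3.90 did not pass (adjusted p = 0.0574). Tulp4, a tubby-like protein gene on the same chromosome, was not called between controls. Between cHet groups it was called in input, with a log2 difference of 0.58 (adjusted p = 0.0132), where 4.94% of genes were called. LoF cHet input pools were at 88.8, 105 and 104 CPM and T532M cHet ones at 165, 139 and 144 CPM. Its cHet differences of 0.48 in the monosome and 0.09 in the polysome were not called.

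Mid1, an X-linked ubiquitin ligase gene of microtubules that reaches into the pseudoautosomal region in common laboratory strains, gave the smallest p of the monosome. Its floxed monosome pools were at 26.7, 31.7 and 28.4 CPM and its Cre pools at 53.1, 51.1 and 62.7 CPM, a log2 difference of 0.95 (SE 0.0987, adjusted p = 0.000458). LoF cHet pools were at 30.2, 33.04 and 29.6 CPM and T532M cHet pools at 42.1, 53.1 and 64.6 CPM, a difference of 0.79 (adjusted p = 0.0409). In input the control difference was 0.30 (adjusted p = 0.341) and in the polysome 0.19 (adjusted p = 0.634). Mid1-ps1, a gene model at the pseudoautosomal end of chromosome Y (chrY:90753057-90763485), fell by 3.22 in the polysome (adjusted p = 0.0143). It was at 4.29, 1.37 and 3.77 CPM in floxed and 0.0896, 0.510 and 0.423 CPM in Cre pools. Without floxed pools 1 and 3 it had -1.99 (adjusted p = 0.911). The embryos were labelled female, so read pairs on this model are uncertain in origin. Its cHet polysome pools overlapped, at 3.51, 0.324 and 2.96 CPM in LoF and 0.417, 0.231 and 0.562 CPM in T532M.

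Outside these models the control calls were mostly not seen between the cHet groups. Of the called genes, 12 of 20 in input, 14 of 17 in the monosome and 16 of 29 in the polysome had the same direction in cHet. Of those, 4, 6 and 0 were called there too, where the share called was 4.94%, 0.399% and 0.00547% of 18273 genes. The gene called in the cHet polysome was Ddx3x. The difference between the control and the cHet comparison was tested on all 36 libraries. It passed for 2 of 19121 genes in input (0.0105%), Ifih1 and Nadk2, and for 0 in the monosome and 0 in the polysome. DESeq2 gave 750, 47 and 4, and without adjustment 3047, 1279 and 1068 genes had a p under 0.05. Apart from Ifih1, a control call that was not called in cHet is therefore not shown to differ between them.

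Within the LoF cross, LoF cHet differ from the floxed controls by Cre and by what Cre does to the lox allele. In the fit of all 36 libraries 4 genes passed in input (0.0209%), namely Zfp458, Gm5380 and the models CT010467.2 and Gm15564. In the monosome 2 passed (0.0105%), Gm5380 and Nyx, and in the polysome 0, with 599 at an unadjusted p under 0.05. None of these is among the 46 genes called between the controls. The comparison shares the floxed controls with the main one, so the values are set side by side: Gm8210 in input had -4.73 between controls and -0.04 within the LoF cross, and Tma7-ps had -2.57 and 0.04. Cyp26b1 in input had -2.47 and -0.82, Dkk3 had -1.10 and -0.31, and H19 in the polysome had -1.04 and 0.05.

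**Figure D3:**
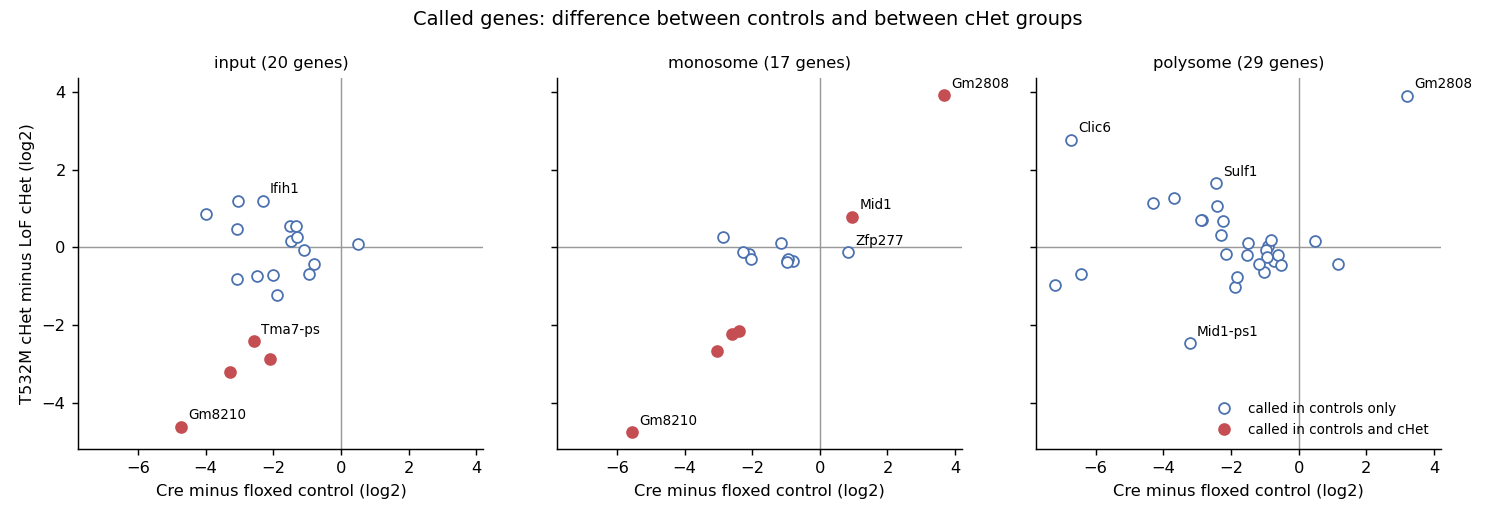
Log2 difference between T532M and LoF cHet (y axis) against the log2 difference between Cre and floxed controls (x axis) for each called gene of a fraction; filled points were called in both comparisons. Filled points lie near the diagonal, as Gm8210 at -4.73 and -4.61 in input, while genes such as Clic6 lie on opposite sides of 0.

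Cyp26b1, the enzyme that breaks down retinoic acid, had the smallest p in input and in the polysome. In input it was at 2.35, 3.72 and 2.49 CPM in floxed pools and at 0.645, 0.436 and 0.441 CPM in Cre pools. The log2 difference was -2.47 (SE 0.273, adjusted p = 0.00114) in input, -2.08 (adjusted p = 0.0121) in the monosome and -2.15 (SE 0.243, adjusted p = 0.00157) in the polysome. The polysome pools were at 13.3, 11.3 and 10.97 CPM against 2.81, 3.19 and 2.05 CPM. Groups did not overlap in any fraction. The cHet pools of a genotype were far apart: 3.77, 0.539 and 0.451 CPM in LoF and 2.07, 0.665 and 0.173 CPM in T532M input. In the polysome they were at 15.6, 3.83 and 1.82 CPM in LoF and 13.3, 3.89 and 1.44 CPM in T532M, so pools of 1 genotype reached the levels of both control groups.

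Rspo2, an R-spondin that strengthens Wnt signals, was at 5.71, 3.82 and 3.29 CPM in floxed and 0.918, 0.349 and 0.261 CPM in Cre input, a log2 difference of -3.03 (SE 0.463, adjusted p = 0.0108). In the polysome it fell by 2.87 (adjusted p = 0.0251). Its T532M cHet input pools were at 8.94, 3.39 and 0.115 CPM, beyond both control groups. Dkk3, a secreted protein of the Dickkopf family, was at 16.9, 13.8 and 13.4 CPM against 7.21, 7.61 and 5.66 CPM in input. It fell by 1.10 in input, 0.94 in the monosome and 0.90 in the polysome (adjusted p = 0.0108, 0.0492 and 0.0362). Wif1, a secreted Wnt inhibitor, fell by 3.08 in input (adjusted p = 0.0275), and the ligand gene Wnt9a by 1.30 in input and 1.52 in the polysome (adjusted p = 0.0339 in each).

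Sp5, a transcription factor induced by Wnt signals, fell by 2.85 in the monosome (adjusted p = 0.0294), from 1.71, 1.12 and 1.13 CPM to 0.157, 0.242 and 0.133 CPM. Sulf1, an enzyme that trims heparan sulfate, fell by 2.44 in the polysome (adjusted p = 0.0251). Its floxed pools were at 80.4, 24.1 and 95.2 CPM and its Cre pools at 16.7, 9.82 and 10.5 CPM. Without floxed pools 1 and 3 the value for Sulf1 was -0.94 (adjusted p = 0.911). Bmp6, a ligand of the Bmp family, fell by 2.02 in input and 1.89 in the polysome (adjusted p = 0.0275 and 0.0464). Id3, a target of Bmp signals, fell by 0.95 in the monosome (adjusted p = 0.0294). Wfikkn2, a secreted inhibitor of growth differentiation factors, fell by 2.90 in the polysome (adjusted p = 0.0302), with floxed pools at 17.1, 4.201 and 21.2 CPM and Cre pools at 1.31, 2.55 and 1.90 CPM. Without those 2 floxed pools Wfikkn2 had -1.11 (adjusted p = 0.911).

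**Figure D4:**
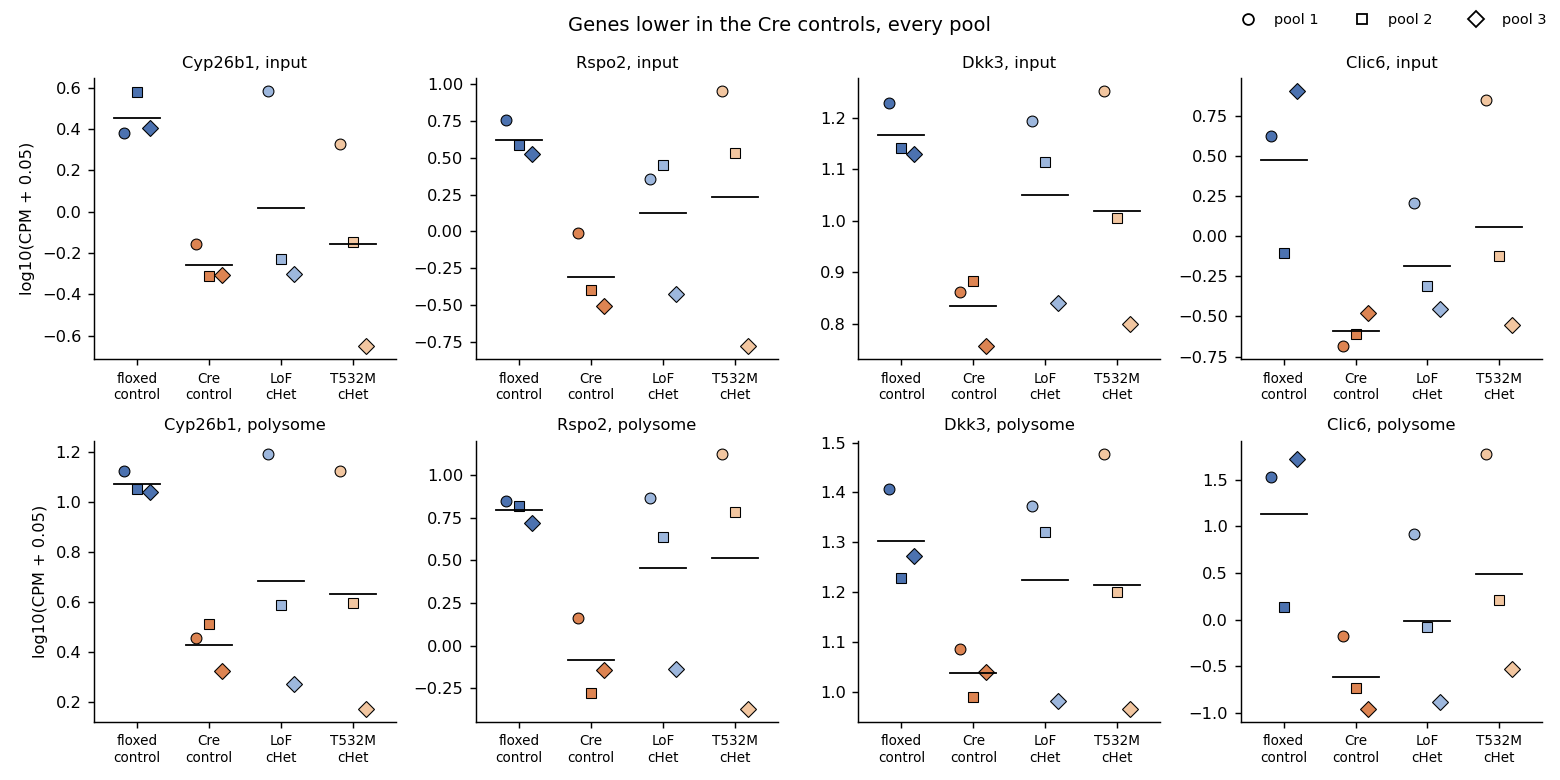
Level as log10(CPM + 0.05) (y axis) of Cyp26b1, Rspo2, Dkk3 and Clic6 in every pool of the 4 groups, input above and polysome below; horizontal lines are means of the plotted values. Control groups do not overlap, and T532M cHet pools 1 and 3 lie at opposite ends, as Rspo2 in input at 8.94 and 0.115 CPM.

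Prox1, a transcription factor of the dentate region and of lymphatic vessels, was at 8.36, 6.46 and 5.90 CPM in floxed and 2.13, 3.77 and 2.29 CPM in Cre input. It fell by 1.34 in input (adjusted p = 0.0266) and by 1.16 in the monosome (adjusted p = 0.0483). The neighbouring antisense gene Prox1os fell by 3.08 and 2.04 (adjusted p = 0.0099 and 0.043), and counting used strand. Tmem132c, a membrane protein gene, fell by 1.47 in input (adjusted p = 0.027) and was called in the polysome too (adjusted p = 0.0251). Vat1l fell by 0.81 (adjusted p = 0.0339) and Phlda1 by 0.62 (adjusted p = 0.0251) in the polysome. Dcdc2a, a doublecortin family gene of cilia, fell by 2.28 in the monosome and 2.30 in the polysome (adjusted p = 0.0483 and 0.0251). Cfap206, a gene of the ciliary axoneme, fell by 4.31 in the polysome (adjusted p = 0.0251), from 133 to 6 read pairs over the 3 pools. Saxo2, another gene of cilia, fell by 2.23 and Cdh3, which encodes P-cadherin, by 3.68 (adjusted p = 0.0251 and 0.0414). Without floxed pools 1 and 3 the polysome values were -1.45 for Dcdc2a, -2.39 for Cfap206, -1.48 for Saxo2 and -1.63 for Cdh3, none called (adjusted p = 0.911). The gene models 1700007K13Rik and Gm42460 fell by 3.98 and 1.51 in input (adjusted p = 0.0266 and 0.0242), from 60 to 3 and from 133 to 41 read pairs.

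Islr, a marker of mesenchymal cells, was at 8.01, 8.72 and 11.1 CPM in floxed and 1.45, 3.90 and 2.17 CPM in Cre input and fell by 1.90 (adjusted p = 0.0201). Apod, a lipid carrier, fell by 0.93 in input (adjusted p = 0.011), and Anxa2, an annexin, by 0.79 in input and 0.73 in the polysome (adjusted p = 0.0275 and 0.0439). Stra6, a receptor for retinol-binding protein, fell by 1.17 in the polysome (adjusted p = 0.0251), and Pltp, a phospholipid transfer protein, by 0.96 in the monosome and 0.95 in the polysome (adjusted p = 0.043 and 0.0251). Without floxed pools 1 and 3 the polysome value of Pltp was -0.55 (adjusted p = 0.911). Cav1, the coat protein of caveolae, fell by 0.96 in the monosome (adjusted p = 0.0294).

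H19, an imprinted long RNA of embryonic mesoderm-derived tissues, was at 85.2, 90.7 and 98.9 CPM in floxed and 42.9, 60.3 and 56.7 CPM in Cre monosome pools. It fell by 0.78 in the monosome (adjusted p = 0.043) and 1.04 in the polysome (adjusted p = 0.0108). It was the called member among 23 tested imprinted genes, as Mid1 was in the monosome among 11 genes of X inactivation and escape. Of all genes tested 0.0919% were called in the monosome and 0.157% in the polysome. The collagen-processing gene P3h4 fell by 0.97 and Rab13, a GTPase of cell junctions, by 0.51 in the polysome (adjusted p = 0.0251 and 0.0464). Epsti1 and Fbxo40 were called in the polysome on few reads: 25 and 43 read pairs in the floxed pools and 0 in the Cre pools. With a floor of 3 read pairs over the group, which covers counting error only, they were at least 8.34-fold and 14.3-fold lower.

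For many of these genes the highest and lowest cHet pools of 1 genotype lay as far apart as the control means. There were 51 calls, on 36 genes, that were lower in Cre controls and not called in cHet in any fraction, and 49 of them allowed a ratio. In 37 of the 49 the highest cHet pool of 1 genotype exceeded its lowest by at least the ratio of the control means. T532M cHet did so in 34 and LoF cHet in 18 of the 49. T532M cHet pool 1 was the highest of its group in 47 of the 51, T532M cHet pool 3 the lowest in 40 and LoF cHet pool 3 the lowest in 42. This was counted after the values had been seen, and no share over all genes was taken. A range of 3 pools is a wider measure than a ratio of means. Leaving out genes called in cHet favours those with a wide cHet spread. The counts therefore describe these pools and do not measure their spread against the control difference.

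The choroid plexus and cortical hem list was the one with more than 1 called member in a fraction. All 15 of its 15 tested members had negative log2 differences in each fraction, of which 1 was called in input (Rspo2), 0 in the monosome and 3 in the polysome (Rspo2, Lmx1a and Clic6), where 0.108%, 0.0919% and 0.157% of all genes tested were called. The median was -2.70 in input, -2.55 in the monosome and -2.87 in the polysome, against 0, 0.053 and 0.055 over all genes tested. At an unadjusted p under 0.05 there were 14, 12 and 13 members. Clic6, a chloride channel protein of choroid plexus epithelium, was at 33.8, 1.31 and 53.2 CPM in floxed and 0.627, 0.136 and 0.0604 CPM in Cre polysomes and fell by 6.72 (SE 1.24, adjusted p = 0.0381). Lmx1a, a transcription factor of the hem and roof plate, was at 5.47, 2.02 and 5.16 CPM against 1.46, 0.374 and 0.514 CPM and fell by 2.42 (adjusted p = 0.0464). Without floxed pools 1 and 3 Clic6 had -2.21 and Lmx1a -1.33, neither called (adjusted p = 0.911).

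Ttr, which encodes transthyretin, was at 156, 1.45 and 179 CPM in floxed and at 0.195, 0 and 0.0602 CPM in Cre input, and was not called (adjusted p = 0.0608). Floxed pools 1 and 3 held nearly all of it, and pool 2 little. The summed level of the list was 229, 39.5 and 241 CPM in floxed and 20.7, 20.2 and 19.5 CPM in Cre input. It was 76.0, 30.8 and 14.1 CPM in LoF cHet and 289, 37.9 and 13.1 CPM in T532M cHet, so pools that carried Cre reached both ends. Between cHet groups 14, 15 and 14 of the 15 members had positive differences in input, monosome and polysome, the opposite sign. Kcne2, an epithelial potassium channel subunit, was at 5.84, 0 and 7.89 CPM in floxed input and at 0 in all Cre input pools. Without floxed pools 1 and 3, an alternative chosen after seeing the data that leaves 1 floxed pool, the list median was -1.65, -0.86 and -1.99, with 13, 12 and 14 of 14 tested members negative.

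Over the called genes that alternative kept the direction of 20 of 20, 17 of 17 and 29 of 29 in input, monosome and polysome. These genes were called on the same pools, so a kept direction is not separate support. Their median absolute log2 difference was 2.06 with all pools and 1.97 without the pair in input. It was 2.04 and 2.02 in the monosome, and 1.89 and 1.33 in the polysome. The fit assumes that the lone floxed pool varied like the other groups.

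The meninges list was also lower by sign. All 12 of its members had negative differences in each fraction and 0 were called, with medians of -1.86, -1.53 and -1.67. At an unadjusted p under 0.05 there were 11, 7 and 9. Members included the collagens Col1a1 and Col3a1 (-1.79 and -1.99 in input), the transcription factor Foxc1 (-1.51) and Aldh1a2, which makes retinoic acid (-1.93). Input sums were 252, 236 and 327 CPM in floxed pools and 59.3, 176 and 71.7 CPM in Cre pools, which did not overlap. Cre pool 2 stood above the other Cre pools, in the polysome at 796 CPM against 93.1 and 143 CPM. Without Cre pool 2, 12, 10 and 12 of the 12 meninges members were called, with medians of -3.13, -2.70 and -3.21. Over all genes 410, 231 and 368 of 18874 tested were called in that setting. Leaving out the Cre pool with the highest meninges level widens the difference by construction, so these counts are no separate support. In contrast to the choroid plexus list, all 12 also had negative differences between T532M and LoF cHet, with medians of -0.93, -0.86 and -0.89 and both groups carrying Cre.

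**Figure D5:**
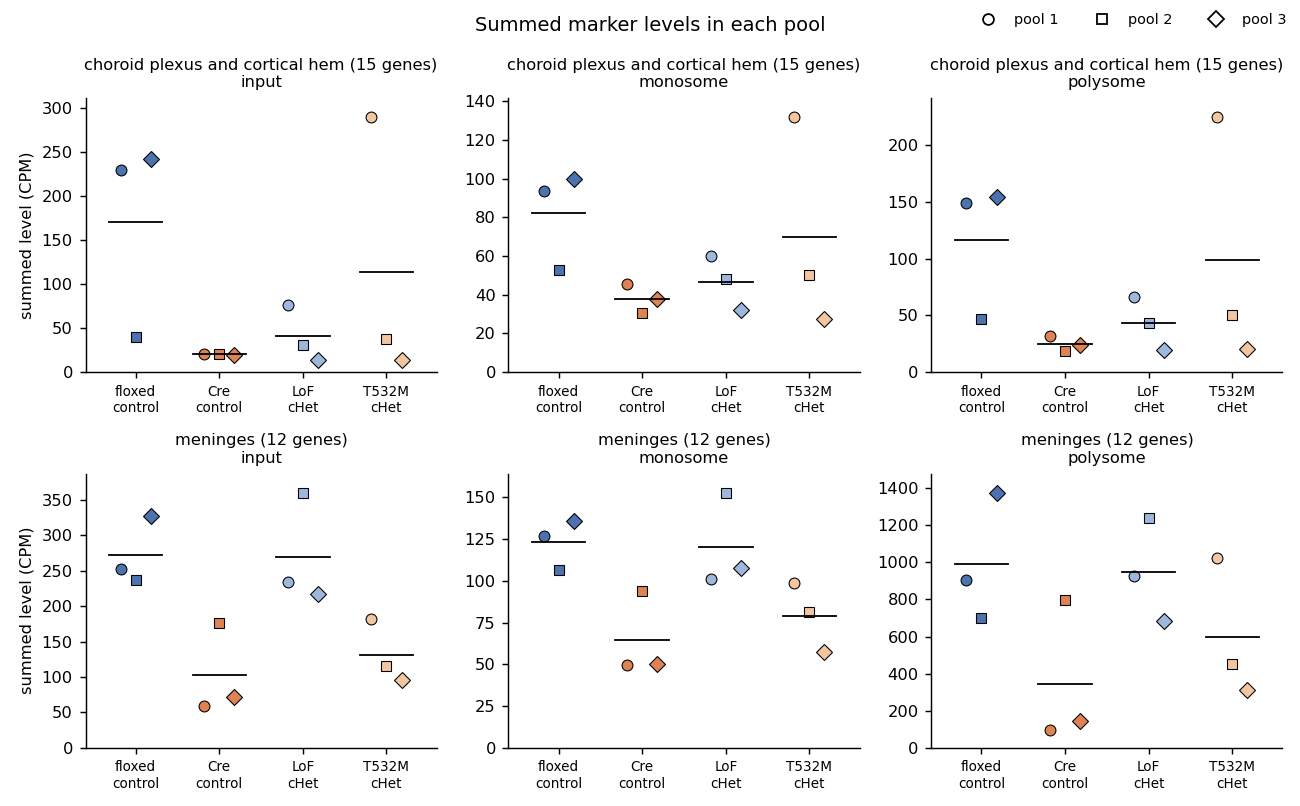
Summed CPM (y axis, from 0) of the choroid plexus and cortical hem list (above) and the meninges list (below) in every pool of the 4 groups and 3 fractions; horizontal lines are group means. The 3 Cre control pools held 19.5 to 20.7 CPM of the first list in input, while pools within the other groups reached from 13.1 to 289 CPM.

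Lists of other cells that are not cortical neurons had negative medians with 0 calls. For endothelial cells and pericytes 12, 12 and 11 of 12 members were lower by sign, with medians of -0.41, -0.52 and -0.22. For erythroid cells 11, 11 and 10 of 11 were, with medians of -0.58, -0.87 and -0.76. Microglia had 9, 10 and 9 of 12 lower, with medians of -0.22, -0.41 and -0.16. In cHet the endothelial list had 11, 12 and 10 of 12 members lower in the T532M cross. The erythroid list had 11, 8 and 8 of 11 lower there, and the microglia list 11, 7 and 12 of 12. The polysome median of the endothelial list turned to 0.05 without the Ttr-rich floxed pools.

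Markers of cortical progenitors and neurons gave 0 calls. Radial glia had medians of -0.12, 0.01 and 0.04 and intermediate progenitors 0.12, 0.10 and 0.20. Cortical excitatory neurons had 14 of 16 members higher by sign in the monosome and in the polysome, with medians of 0.15 and 0.23 and 0 called, where all genes had medians of 0.053 and 0.055. Between cHet groups 14 and 11 of these 16 were lower. Interneurons had 14, 14 and 12 of 15 members lower by sign, with medians of -0.27, -0.15 and -0.12. Without floxed pool 2 their medians were -0.06, 0.03 and 0.01, and without Cre pool 2 -0.10, -0.01 and -0.02.

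Medians of the cytosolic ribosomal protein genes, the mitochondrially encoded mRNAs and the ribosomal RNA gene models differed in sign between fractions. The 51 tested translation initiation factor genes had medians of -0.01, -0.02 and 0.04 in input, monosome and polysome, with 0 called. Of 81 genes for cytosolic ribosomal proteins, 79 had negative differences in the monosome, with a median of -0.26. None passed edgeR's test, while 63 had a p under 0.05 before adjustment, where 1590 of all 18507 genes did. DESeq2 called 32 of them, among 176 called of 31695 genes tested. The median was 0.05 in input and -0.06 in the polysome. In cHet, where both groups carried Cre, the monosome median was -0.29 with 74 of 81 lower, and the input median was -0.29 as well. The mitochondrially encoded mRNAs had a monosome median of -0.72, with 9 of 10 lower and 0 called, and a polysome median of 0.57, with 8 of 10 higher by sign and 0 called. At an unadjusted p under 0.05 there were 8 in the monosome and 3 in the polysome. Between cHet groups their medians were 0.53, -0.20 and 0.68 in input, monosome and polysome. Mitochondrial genes took 6.47 to 10.2% of read pairs in floxed and 3.82 to 6.75% in Cre monosome libraries. In polysome libraries they took only 0.0194 to 0.0377% in floxed and 0.0291 to 0.0420% in Cre controls. The ribosomal RNA gene models took 0.566 to 1.70% of read pairs in floxed and 2.57 to 4.66% in Cre input libraries, and 4 of 4 models had positive input differences, with a median of 1.23 and 0 called. In the monosome and the polysome 4 of 4 had negative differences, with medians of -0.68 and -0.46 and 0 called. The LoF cHet input libraries, also with Cre, were at 4.44 to 5.27% and the T532M cHet ones at 2.09 to 5.26%, so the floxed input stood below all others. Their part in the other differences was not tested, and leaving both gene classes out before scaling gave 20, 17 and 29 calls again.

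Ifih1, a cytosolic sensor of double-stranded RNA, was in input the called member of 10 interferon response genes, where 0.108% of all genes were called. There it was at 0.445, 0.424 and 0.390 CPM in floxed and 0.0782, 0.0872 and 0.0802 CPM in Cre pools, and fell by 2.31 (SE 0.332, adjusted p = 0.0099). The cHet difference had the opposite sign, 1.20 (adjusted p = 0.0526), with LoF cHet at 0.109, 0.0998 and 0.215 CPM and T532M cHet at 0.406, 0.208 and 0.365 CPM. The floxed controls thus lay nearer to the T532M cHet, and the Cre controls nearer to the LoF cHet. In the monosome and the polysome its control differences were 0.02 and 0.02 (adjusted p = 0.998 and 0.986), at 6.32 ± 0.523 CPM (SD, n = 3) in floxed and 6.44 ± 1.17 CPM in Cre polysomes, against 69 and 12 read pairs in input. Of the other interferon genes, Isg15, a ubiquitin-like modifier, had -1.31 (adjusted p = 0.594) in input.

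Emx1 and Ddx3x, the genes at which the alleles sit, were not called in any fraction. Emx1 was at 81.9, 81.1 and 88.1 CPM in floxed and 69.4, 76.5 and 66.3 CPM in Cre input. The groups did not overlap, and the log2 difference was -0.23 (SE 0.122, adjusted p = 0.671). In the monosome it was -0.07 and in the polysome 0.06. Ddx3x was at 153, 88.8 and 94.8 CPM in floxed and 49.0, 148 and 109.7 CPM in Cre input, a log2 difference of -0.13 (SE 0.279, adjusted p = 0.933). It was 0.11 in the monosome and 0.33 in the polysome (adjusted p = 0.944 and 0.747). The lox allele of the floxed controls was thus not accompanied by a called difference in Ddx3x.

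Within 5 Mb of Emx1, 129 genes were tested and 1 was called in each fraction, where all genes tested had 0.108%, 0.0919% and 0.157% called. It was Cyp26b1 (ENSMUSG00000063415.12, chr6:84571414-84593908, minus strand), which lies 593.5 kb from Emx1 (chr6:85187438-85204462). Around Ddx3x 0 of 36 were called. Of 252 windows of 10 Mb with at least 20 tested genes, 19 held a call in input and 26 in the polysome, and 1 and 2 held more than 1. The shared window of input was that of Prox1 and Prox1os.

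Genes higher in the Cre controls were few. Wscd1, a sulfotransferase family gene, was at 45.6, 50.6 and 49.4 CPM in floxed and 72.8, 63.9 and 65.8 CPM in Cre input and rose by 0.49 (SE 0.0900, adjusted p = 0.0416). Fhod3, a formin of actin filaments, was at 92.4, 99.7 and 104 CPM against 146, 134 and 137 CPM in the polysome and rose by 0.49 (SE 0.0885, adjusted p = 0.0339). The gene model 4933439C10Rik rose by 1.17 in the polysome (adjusted p = 0.0481), on 39 and 80 read pairs. Their cHet differences were 0.09, 0.15 and -0.43 and were not called.

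Few genes passed a test of whether the control difference changed between fractions. The change from input to polysome passed for 0 genes, with 750 at an unadjusted p under 0.05 and 0 by DESeq2. From input to monosome it passed for 0, with 586 at an unadjusted p under 0.05 and 17 by DESeq2. From monosome to polysome 1 gene passed (0.0054%), Zfp277, a zinc finger protein gene (chr12:40315046-40445902, minus strand). In the monosome it was at 33.2, 27.1 and 27.9 CPM in floxed and 54.4, 44.5 and 57.9 CPM in Cre pools and rose by 0.84 (SE 0.110, adjusted p = 0.00385). In the polysome it was at 18.6, 21.1 and 20.7 CPM against 14.2, 14.6 and 14.7 CPM, a difference of -0.48 (adjusted p = 0.107). The change from monosome to polysome was -1.32 (SE 0.157, adjusted p = 0.0034). Groups did not overlap in either fraction, and they lay in opposite orders. In input the pools overlapped, with a difference of -0.02. The cHet differences were -0.12 in the monosome and -0.52 in the polysome, neither called. Without floxed pool 2 or 3 or Cre pool 1 or 3 the change of Zfp277 was not called, and its value ran from -1.45 to -1.20 over 12 alternatives.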

How the data were processed

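The authors' deposited table of raw counts per gene was used. Per the file headers, these are read pairs on each gene from start to end, with its introns, from featureCounts 2.0.3 with strand setting 2 on GENCODE M25 (GRCm38). STAR 2.7.11a, FastQC 0.11.7 and DESeq2 1.34.0 appear in the submitters' processing notes. Near-identical copies and genes overlapping on the same strand could not be told apart by such counting.

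Counts were tested with the quasi-likelihood test of edgeR 4.0.16 (R 4.3.3), after filterByExpr and TMM scaling, with 1 term for each of the 6 control groups and Benjamini-Hochberg adjustment over all genes tested. The cHet libraries were fitted likewise, and all 36 together for the difference. CPM levels use TMM over all 36 libraries. The fit was tested on simulated data. DESeq2 1.42.0 and other alternatives are given in the closing section. The members, the 39 gene lists and the tests were chosen with earlier results of these data known. Genes are named where they passed, had a mean of at least 2 CPM, a gene name and groups that did not overlap (the 12 largest rises and falls), where few passed, where called in all fractions or in a list, or in a window. The other called genes, Tma7, Rpl29, Ttr and the copies were added after their values were seen. Libraries of the same pool number deviated together within a cross (r 0.095 to 0.392 over 18 pairs) but not across crosses (r -0.268 to 0.088 over 9 pairs), so numbers do not pair the groups compared.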

Additional observations from a re-analysis of the deposited data

Results flagged for a closer look

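Zfp277 stood out because the difference between the controls itself differed between fractions. The change from monosome to polysome was -1.32 on the log2 scale (SE 0.157, adjusted p = 0.0034 by edgeR's quasi-likelihood test), with all 3 Cre pools above the floxed pools in the monosome and all 3 below them in the polysome. Ifih1 and Nadk2 stood out because the difference between the crosses differed between controls and cHet in input. For Ifih1 the control difference minus the cHet difference was -3.53 (SE 0.473, adjusted p = 0.000447), and it passed in the 15 alternatives that gave it an adjusted p. DESeq2, which called 750 genes, gave Ifih1 no adjusted p and so did not call it. For Nadk2, a mitochondrial NAD kinase gene, it was -1.17 (SE 0.212, adjusted p = 0.0499), and it passed in 9 of 16. Nadk2 was at 26.1, 17.3 and 20.7 CPM in floxed and 14.7, 22.4 and 17.4 CPM in Cre input. LoF cHet pools were at 13.2, 17.2 and 15.0 CPM and T532M cHet pools at 32.4, 28.6 and 26.3 CPM, so the cHet groups were apart and the controls overlapped.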

How the results depend on the processing

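Counts are in the order input, monosome, polysome, and were 20, 17 and 29 between controls. DESeq2 called 139, 176 and 174, and dropping the low-count filter 214, 87 and 216. Calls ranged from 0 to 410, 3 to 231 and 0 to 368 when 1 pool was left out. The 6 libraries of a fraction alone gave 0, 10 and 1, all 36 libraries 5, 7 and 2, and leaving out the 2 floxed pools with the most Ttr 9, 9 and 3, of which 2, 1 and 0 were among the calls reported. RLE scaling gave 19, 17 and 24. With the pool number as replicate block the counts were 81, 68 and 101 between controls, 1191, 106 and 9 between cHet groups, and 2, 4 and 1 for the difference of the comparisons, although the numbers do not pair the crosses. With the lysate as block 0 genes passed for the change from input to polysome, 1 from monosome to polysome and 0 from input to monosome.

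The change from input to polysome gave 1 call with all 36 libraries. The change from monosome to polysome gave 4 with DESeq2, 4 without the filter, 0 without the Ttr-rich pools and 0 to 1 with a pool left out. The change from input to monosome gave 17 with DESeq2 and 1 without the filter. Between cHet groups, with 903, 73 and 1 calls reported, DESeq2 gave 1502, 310 and 52, no filter 1716, 166 and 204, and leaving out a pool 26 to 1091, 6 to 110 and 0 to 27. For the difference of the comparisons (2, 0 and 0), DESeq2 gave 750, 47 and 4, no filter 1163, 36 and 51, and leaving out a pool 1 to 1697, 0 to 43 and 0 to 2. The cause of these changes was not tested.

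Of 1060 values of single genes under an alternative, 618 kept their direction and side of the threshold, 433 were no longer called and 9 changed direction, all of them Emx1 or Ddx3x, which were not called between controls. Ddx3x in input was 0.15 without floxed pool 1, 0.22 without Cre pool 1 and 0.20 without the Ttr-rich pools. In the monosome it was -0.02 without Cre pool 3 and -0.07 without the Ttr-rich pools. Emx1 in the monosome was 0.00 without floxed pool 1 and 0.07 without the Ttr-rich pools, and in the polysome -0.06 without Cre pool 2 and -0.01 without the Ttr-rich pools. Over 13 alternatives, not counting the one without both Ttr-rich pools, input values of Ddx3x ran from -0.47 to 0.22. Its monosome values ran from -0.02 to 0.21. Over the same 13 alternatives monosome values of Emx1 ran from -0.20 to 0.00 and polysome values from -0.06 to 0.16. In the simulation, differences of 1.5-fold were mostly not called.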
